A study of Mus musculus with 23 samples.

Results

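The neuronal intermediate filament genes are Nefl, Nefm, Nefh, Ina and Prph, 5 genes taken by name out of the 55487 gene IDs counted in every library. Their measured values were no criterion, though the genes were chosen with earlier results of these data known. They were followed in hippocampal neurons of C57Bl/6 mice, prepared from pups on postnatal day 1. The cells were seeded at 200000 into the soma side of microfluidic chambers, whose other side is meant for axons only. Every culture, controls included, was given magnetic nanoparticles (MNPs) at 5 µg/ml in its medium. The treated cultures stood in a magnetic gradient of 50 T/m from day in vitro 1 to day 6, which pulls on the particles and stretches the axons as they grow. The control cultures had the same particles and a null gradient. RNA came from the axonal compartment (control n = 5, treated n = 6 libraries) or from the soma side (control n = 6, treated n = 6), which the labels call somatodendritic in the protocol and total cell culture in the cell type field. The labels do not say whether libraries of a group came from separate cultures or animals, so the tests measure the spread between these libraries, which may be technical.

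Neuronal intermediate filaments are ropes of coiled-coil proteins that fill the axon, set its calibre and give it mechanical strength. Nefl (light chain) is the core subunit that can assemble with the others. Nefm (medium chain) and Nefh (heavy chain) add long, heavily phosphorylated tails that project from the filament, and Nefh appears late in neuronal maturation. Ina (alpha-internexin) is the subunit of early neurons of the central nervous system and co-assembles with the triplet. Prph (peripherin) is best known from peripheral neurons and from brainstem and spinal neurons that send axons out to the periphery. The filament proteins travel down the axon by slow transport, and their mRNAs are bound by proteins such as TDP-43 that control their stability.

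In the soma, stretch went with less Nefm and less Ina mRNA, while Nefl stayed at the same level within its error. Nefm was 0.595 and Ina 0.665 times the control level, and Nefl 1.02 times. Nefh and Prph were the rarest members, and neither passed the test. In axons, only Nefl and Ina could be tested between treated and control, and none of the 4947 genes tested there passed. Nefl, Nefm and Ina were seen in some axonal libraries at soma-like or higher levels and in others at 0, and Nefh and Prph had no count in any of the 11 axonal libraries.

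The members share parts of the coding sequence of their rod domain, which bears on how well reads can be told apart. The longest run of bases shared exactly by any pair over the whole coding sequences was 35 bases, between Nefm and Prph, and the shortest was 13 bases, between Nefl and Ina. Per the labels' protocols, single reads are longer than such runs.

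A more direct limit comes from the genome. Nefl lies on chromosome 14 at chr14:68083863-68089095 on the plus strand of GRCm38, and Nefm lies beside it at chr14:68082590-68124846 on the minus strand. The last exon of the Nefm-202 transcript runs across the start of Nefl, so that 1108 bases, 32.8% of the exonic bases of Nefl and 19.2% of those of Nefm, belong to exons of both genes. The end of exon 1 of Nefl is shown here, at chr14:68084910-68085009 on the plus strand, because the boundary falls inside it: the 61 bases in lower case are shared with Nefm-202, and the 39 in capitals belong to Nefl alone.
Nefl exon 1 end: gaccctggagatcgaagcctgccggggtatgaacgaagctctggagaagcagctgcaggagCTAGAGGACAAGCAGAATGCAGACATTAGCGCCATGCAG
Nefl exon 2 to 4 and the exons of the shorter Nefm-201 transcript lie outside the overlap. The other members are Nefh at chr11:4938754-4948064 on the minus strand, Ina at chr19:47014698-47025327 on the plus strand and Prph at chr15:99055174-99058978 on the plus strand. The first exon of Ina shares 456 bases, 14.1% of its exonic bases, with Nt5c2 on the opposite strand. Whether the authors counted by strand is not given in the sources used here, so reads in these shared bases may have been set aside as ambiguous or given to either gene, and Nefl, Nefm and Ina levels carry that uncertainty.

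**Figure D1:**
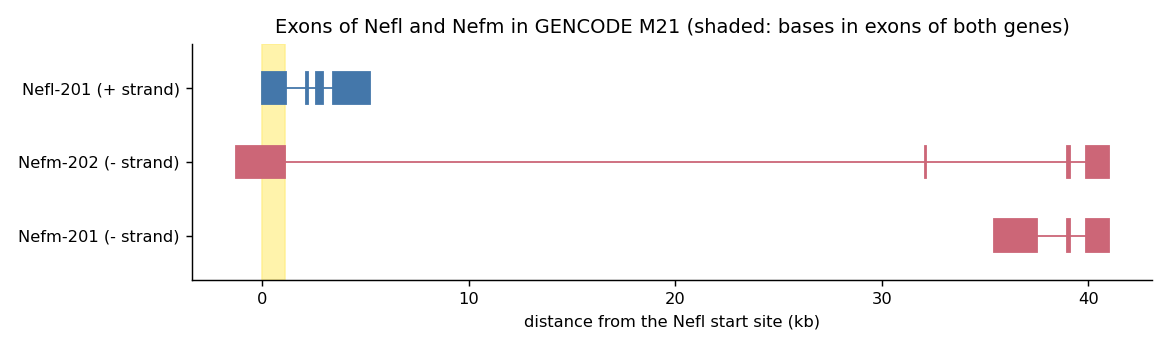
Exons (boxes) and introns (lines) of the Nefl transcript and of both Nefm transcripts in GENCODE M21, by distance from the Nefl start site in kilobases (kb). The shaded band marks the 1108 bases that are exonic in both genes, where Nefm-202 crosses exon 1 of Nefl.

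Total gene counts ranged from 16369153 to 43048953 per library. Soma libraries held at least 1 count for 22452 to 24575 genes and axonal libraries for 4263 to 10242. The neuronal marker list summed to between 4755 and 5575 counts per 1000000 gene counts (CPM) in soma libraries and to between 1282 and 3234 CPM in axonal libraries. Astrocyte markers summed to between 3763 and 21339 CPM in axonal libraries, against 4666 to 12767 CPM in soma. Their medians were 16716 CPM in control axons, 6246 in treated axons, 7675 in control soma and 7772 in treated soma. Gfap was at 2867 CPM or more in each axonal library, although the labels call these preparations pure axons. The list of cell-body and nuclear transcripts summed to between 553 and 3219 CPM in axons, against 1383 to 2938 CPM in soma. The part of these other sources in the axonal values below was not tested. Soma libraries were also cut into 2 sets at the widest log2 gap in CPM of the Y-linked gene Eif2s3y, a rule that always gives 2 sets. Control 1, 2 and 3 with treated 1, 2 and 8 lay between 24.7 and 28.7 CPM, and control 4, 5 and 6 with treated 4, 5 and 6 between 5.39 and 13.2 CPM. Within the low set, control 5 at 5.39 CPM lay well below the next library, treated 4 at 9.72 CPM. The labels do not name this split as a batch.

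Levels in soma were compared per kilobase of the longest transcript per 1000000 counts, since the members differ in length. In control soma, Nefl stood highest at 41.9 ± 3.63, followed by Ina at 37.9 ± 10.6 and Nefm at 32.4 ± 5.53 (mean ± SD, n = 6 each). Nefl and Ina, and Ina and Nefm, differed by less than their spread. Prph at 4.91 ± 1.99 and Nefh at 2.09 ± 1.05 were far below these. In treated soma, Nefl was at 43.8 ± 4.09, Ina at 25.9 ± 2.94, Nefm at 19.8 ± 3.36, Prph at 4.71 ± 0.851 and Nefh at 1.39 ± 0.343 on the same scale (n = 6 each). The length was also taken as the exonic bases of all transcripts of a gene that no other gene shares. Nefl in control soma then becomes 62.3, Ina 44.1 and Nefm 25.5, with the same order and wider gaps. The wider gaps come from the lengths used. For Nefm the length grows from 3680 to 4674 bases, since both its transcripts are counted. It shrinks from 3380 to 2272 for Nefl and from 3240 to 2784 for Ina. The longest Nefm transcript has 3680 bases, so no transcript holds all 4674. The measure also takes reads in shared bases as uncounted, which is not known. It thus does not settle the order of the 3 genes.

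Across the 4 groups, CPM of Nefl ran from treated soma (148 ± 13.8) and control soma (142 ± 12.3) through control axon (102 ± 57.3) to treated axon (13.2 ± 22.0), with overlapping ranges between each pair of neighbours in that order. Nefm ran from control soma (119 ± 20.3) and treated axon (116 ± 205) to treated soma (72.8 ± 12.4) and control axon (22.2 ± 49.7), and Ina from control axon (209 ± 276) and control soma (123 ± 34.3) to treated soma (84.0 ± 9.53) and treated axon (45.4 ± 61.9). In these orders, too, the ranges of neighbouring groups overlapped. Axonal values of these 3 genes were either at or near 0 or, mostly, above 20 CPM.

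**Figure D2:**
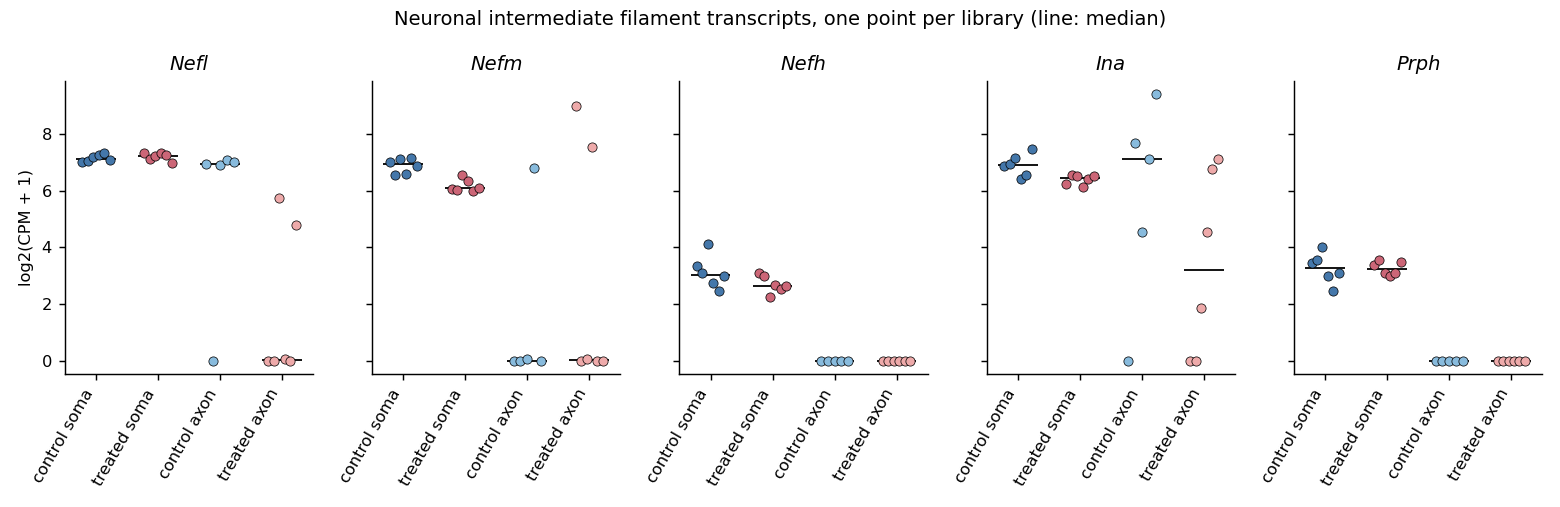
Level of each member as log2(CPM + 1), with 1 point per library and a line at the group median, in control soma (n = 6), treated soma (n = 6), control axon (n = 5) and treated axon (n = 6). Soma values form tight clouds, with Nefm and Ina lower in treated soma, while axonal values scatter between 0 and levels above soma, and Nefh and Prph are at 0 in every axonal library.

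The comparison of treated with control soma asks how RNA of the soma side differs after days in the magnetic gradient, in which the whole culture stood. With edgeR's quasi-likelihood test, 25.1% of the 15632 genes tested passed an adjusted p of 0.05, 13.9% lower and 11.2% higher in treated soma. Of the 5 members, 2 passed, both lower, and with so few members that count is no result about the family beside this background. In bulk samples, fewer cells that make a transcript and less of it per cell cannot be told apart.

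Nefl, the core subunit, ranged from 129 to 159 CPM in control soma with a median of 139, and from 126 to 163 with a median of 150 in treated soma. The groups overlapped almost entirely. The log2 fold change was 0.02 with an SE of 0.09 (adjusted p = 0.854).

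Nefm ranged from 94.4 to 141 CPM in control soma with a median of 123, and from 63.1 to 94.5 with a median of 67.0 in treated soma. Only the highest treated library, replicate 4, reached the lowest control library, replicate 2. After TMM scaling, which adjusts library sizes for composition, the groups no longer overlapped: control soma averaged 121 ± 20.3 with a minimum of 96.8, and treated soma 71.9 ± 12.9 with a maximum of 95.0 (n = 6 each). Such separation was found for 4.04% of all genes tested. Nefm fell by 0.75 on the log2 scale (SE 0.13, adjusted p = 0.00396), against a median of -0.03 over all genes.

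Ina ranged from 83.7 to 179 CPM in control soma with a median of 119, and from 69.9 to 93.5 with a median of 87.4 in treated soma. Control replicate 4, at 83.7 CPM, lay among the treated libraries, and the other 5 control libraries lay above every treated one, replicate 5 at 94.3 CPM by a narrow margin. Ina fell by 0.59 on the log2 scale (SE 0.15, adjusted p = 0.0153).

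Nefh, the late heavy chain, ranged from 4.45 to 16.2 CPM in control soma with a median of 7.23, and from 3.75 to 7.45 with a median of 5.28 in treated soma. Its log2 fold change of -0.62 (SE 0.27) did not pass (adjusted p = 0.0983). The highest value was control replicate 3, and without that library the change was -0.33. Prph ranged from 4.49 to 15.2 CPM in control soma with a median of 8.71, and from 7.03 to 10.8 with a median of 8.52 in treated soma. Its change of -0.10 (SE 0.23, adjusted p = 0.780) was smaller than its error, and turned positive, to 0.09, without control replicate 3.

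Within the Eif2s3y high set (3 against 3), Nefm was lower by 0.86 on the log2 scale and passed (adjusted p = 0.00275), as did Ina with -0.55 (adjusted p = 0.00708). That fit called many other genes as well, so these calls are not particular to the members. Within the low set, Nefm was at -0.60 (adjusted p = 0.272) and Ina at -0.57 (adjusted p = 0.293), in a fit where edgeR called no gene at all, with 2739 genes under an unadjusted p of 0.05. With the set as a covariate, Nefm and Ina passed and Nefh passed as well (adjusted p = 0.0362), in a fit that called 5304 genes. Leaving out any single soma library kept both calls, with Nefm between -0.82 and -0.67 and Ina between -0.69 and -0.45. Fitting all 4 groups together, axons included, ended both calls (0 genes called in soma by edgeR, 262 at an unadjusted p under 0.05). Leaving out both libraries numbered 4 gave -0.90 for Nefm and -0.71 for Ina. In the same libraries the neuronal marker list summed to 4832 to 5575 CPM in control and 4755 to 5263 CPM in treated soma. Its members did not move together: mean CPM went from 3073 to 2616 for Tubb3 and from 53.8 to 29.8 for Rbfox3, but from 706 to 858 for Map2, from 110 to 160 for Gad1 and from 196 to 249 for Prox1. From control to treated soma, the cell-body and nuclear list summed to 1980 to 2938 and 1383 to 2207 CPM, and the microglial list to 23.6 to 54.9 and 16.7 to 25.1 CPM, and the oligodendrocyte list to 42.7 to 74.1 and 39.8 to 57.3 CPM. The part of these shifts in the changes of Nefm and Ina was not tested.

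**Figure D3:**
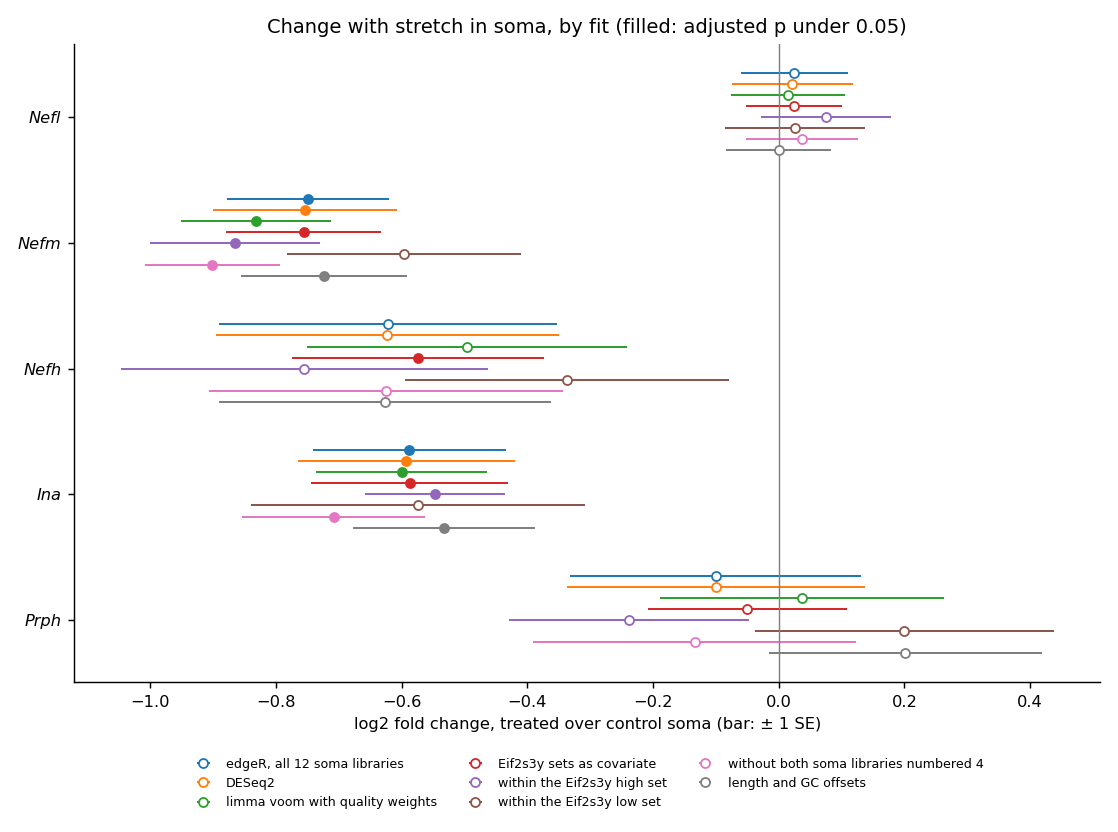
Log2 fold change of each member in treated over control soma (x axis, bars ± 1 SE) under 8 ways of fitting, with filled points where the adjusted p was under 0.05. Nefm and Ina lie below 0 in every fit and lack a filled point only within the Eif2s3y low set, Nefl stays near 0, and Nefh is filled only with the Eif2s3y sets as covariate. Among fits not drawn, that of all 4 groups together called no member, and the replicate block with length and GC offsets did not call Ina.

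The rarer members, Nefh and Prph, differed between the Eif2s3y sets. Nefh ranged from 5.22 to 16.2 CPM in the high set and from 3.75 to 6.99 in the low set, and Prph from 9.41 to 15.2 and from 4.49 to 7.63 (6 libraries a set). For Prph the sets did not overlap in CPM, but how many of all genes separate the sets in this way was not counted. With stretch as a covariate, Nefh was lower in the low set by 0.70 on the log2 scale (SE 0.20, adjusted p = 0.0285) and Prph by 0.67 (SE 0.16, adjusted p = 0.00953), in a fit that called 13.3% of genes, while Nefl, Nefm and Ina did not pass. Gfap, the filament of astrocytes, averaged 8366 ± 1075 CPM in the high set and 4038 ± 351 in the low set (n = 6 each), and its part in this was not tested. Of the 8 marker genes of peripheral and brainstem neurons, where Prph is best known, all stayed under 1 CPM in every soma library.

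The make-up of the family was then compared inside each library, as the count of a subunit per count of Nefl, which does not depend on library size. Nefm stood at 0.844 ± 0.144 counts per Nefl count in control soma and 0.494 ± 0.0842 in treated soma (n = 6 each). Control libraries ranged from 0.632 (replicate 4) to 1.01 (replicate 1), and treated libraries from 0.412 (replicate 1) to 0.635 (replicate 4), so the groups met only where the libraries numbered 4 lay. The log2 ratio was lower by 0.77 in treated soma (p = 0.00433 by an exact permutation test, two-sided, and 0.0173 adjusted over the 4 ratios).

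The ratio of Ina to Nefl was 0.881 ± 0.287 in control and 0.576 ± 0.114 in treated soma (n = 6 each). Its log2 difference of -0.57 did not pass after adjustment (exact permutation test, p = 0.0346, adjusted p = 0.0693). Over the 12 fits without 1 library, its adjusted p by the same test ran from 0.0346 to 0.139. It passed only without control replicate 4 (adjusted p = 0.0346) or control replicate 5 (adjusted p = 0.0404). Nefh stood at 0.0599 ± 0.0300 and 0.0379 ± 0.00945 counts per Nefl count, a log2 difference of -0.56 (exact permutation test, adjusted p = 0.150). Without single libraries, its adjusted p by that test ran from 0.0404 to 0.300, and it passed only without control replicate 5 (adjusted p = 0.0404). Prph stood at 0.0659 ± 0.0278 and 0.0605 ± 0.0157, a log2 difference of -0.04 (exact permutation test, adjusted p = 0.881). Within the Eif2s3y high and low sets the log2 difference for Nefm was -0.91 and -0.63 (exact permutation tests, p = 0.1 and p = 0.2), where 3 against 3 cannot go below 0.1.

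**Figure D4:**
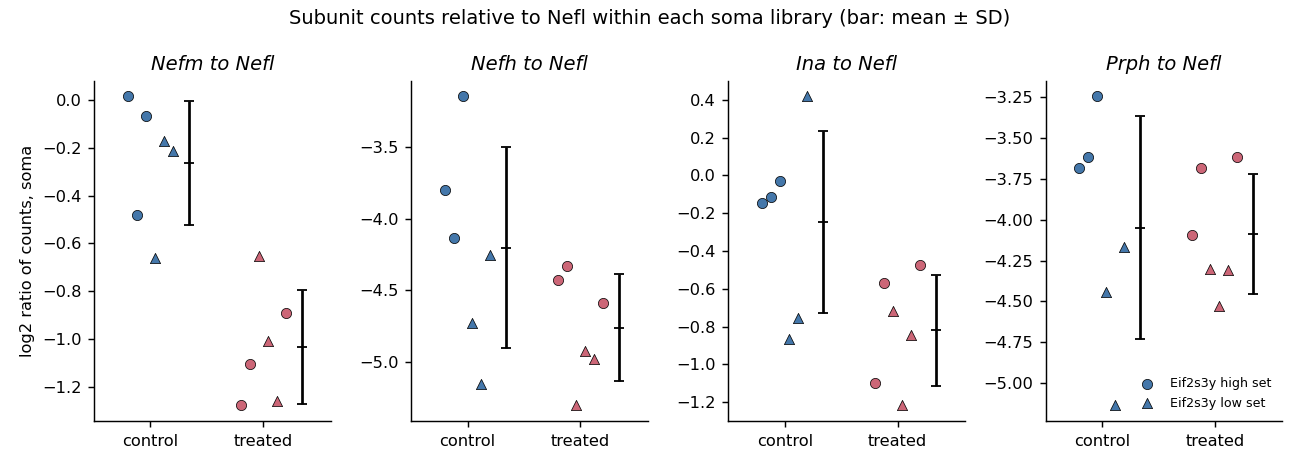
Log2 ratio of the counts of Nefm, Nefh, Ina and Prph to those of Nefl within each soma library, control and treated (n = 6 each), with circles for the Eif2s3y high set, triangles for the low set, and bars for mean ± SD. Nefm shows the clearest step down in treated soma, Ina a smaller one with 2 low control libraries, and the Nefh and Prph ratios sort mainly by Eif2s3y set.

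Turning to axons, Nefl was counted at 124, 0, 120, 136 and 130 CPM in control replicates 1, 2, 3, 5 and 7. In treated axons it was at 0 in replicates 1, 2 and 6, at 1 count in replicate 5, at 52.6 CPM in replicate 4 and at 26.6 CPM in replicate 8. Where it was present in control axons it thus lay near the soma level, and both treated libraries that held it lay below. Nefm was above a floor of 3 counts in control axon replicate 5 alone, at 111 CPM, and in treated axon replicates 1 and 5, at 506 and 189 CPM. Ina was the member found most often, at 0, 204, 22.5, 138 and 680 CPM in the control replicates in the same order, and at 0, 0, 2.59, 22.6, 109 and 138 CPM in treated replicates 1, 2, 4, 5, 6 and 8.

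No axonal library held more than 3 of the 5 members above the floor. The fullest was control replicate 5, which was also the deepest, with 43048953 counts, and treated replicate 2 held none. edgeR called none of 4947 genes between treated and control axons (0%), with 46 at an unadjusted p under 0.05, while DESeq2 called 859 and limma voom with quality weights 10. Nefl had a log2 fold change of -2.93 with an SE of 2.7 and Ina of -2.04 with an SE of 2.38 (adjusted p = 1.00 for both), so differences of several fold either way were not detectable. Nefm, above the floor in only 3 of the 11 axonal libraries though at up to 506 CPM there, was left out by the filter on low counts. Nefh and Prph had nothing to test.

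Detection was set beside the soma level, since rarer transcripts are missed more often. Counting axonal libraries above the floor, Ina was found in 8 of 11, Nefl in 6 (4 of 5 control, 2 of 6 treated), Nefm in 3, and Nefh and Prph in 0. Among the 1357 genes with 100 to 200 CPM in soma, where Nefl (145 CPM over the 12 soma libraries) and Ina (103 CPM) belong, the median gene was found in 7 and the lower quartile was 5. Among the 2108 genes with 50 to 100 CPM, where Nefm (96.0 CPM) belongs, the median was 5 and the lower quartile 4, so Nefm was found less often than most genes of its level. Among the 3625 genes with 5 to 20 CPM, where Nefh (6.96 CPM) and Prph (8.96 CPM) belong, the median was 2, and 17.9% were found in no axonal library.

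**Figure D5:**
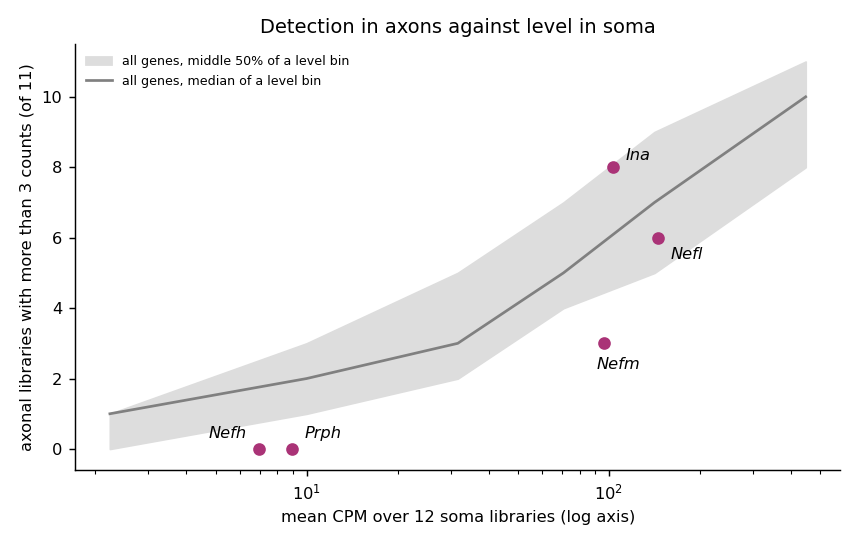
Number of the 11 axonal libraries with more than 3 counts of a gene against its mean CPM over the 12 soma libraries (log axis). The line and band are the median and the middle 50% of all genes in bins of soma level: Ina and Nefl lie inside the band, and Nefm, Nefh and Prph below it.

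Within control cultures, 35.3% of 14728 genes differed between axon and soma by edgeR, nearly all (34.4%) lower in axons. Within treated cultures it was 29.3% of 14466, with 28.4% lower. In both conditions the same members, Nefh and Prph, were called lower in axons. Both had 0 counts in axons (edgeR, adjusted p between 2.39e-06 and 1.52e-05). The soma mean of Nefh was 65.7 times the mean axonal floor of 3 counts in control and 40.0 times in treated cultures. For Prph it was 71.9 and 63.0 times. The floor covers counting error only. Nefl and Ina were each at 0 in 1 control axon and at up to 136 and 680 CPM in others, so these ratios do not bound the level in axons. Nefh and Prph are the least abundant members in soma, and the ratios are set by that level.

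Nefl had a log2 fold change of -0.68 (SE 1.22, adjusted p = 0.841) between axon and soma in control cultures and -3.91 (SE 2.11, adjusted p = 0.262) in treated cultures. In treated cultures every axonal library lay below every soma library. Groups that did not overlap, in either direction, were found for 38% of the genes tested there. Nefm was at -2.46 (SE 2.32, adjusted p = 0.604) in control and -0.02 (SE 2.11, adjusted p = 0.998) in treated cultures. Without control axon replicate 5, the only control axon with Nefm above the floor, Nefm was called lower in control axons (adjusted p = 2.57e-05). The control axons left in that fit held 0 or 1 count of Nefm, and it called 8151 genes, so the call adds little. Ina was at 0.50 (SE 1.35, adjusted p = 0.906) and -1.19 (SE 1.67, adjusted p = 0.830), and without control axon replicate 7 its control value turned to -0.69. These values depend on the tool: limma voom with quality weights called all 5 members lower in treated axons, with -9.47 for Nefl (adjusted p = 0.00087), -7.77 for Nefm (adjusted p = 0.0031) and -4.99 for Ina (adjusted p = 0.0151), and in control axons it called Nefm as well (-11.02, adjusted p = 0.0011). Those voom fits called most genes tested, 10084 of 14466 in treated and 9798 of 14728 in control cultures. Beside that share, the calls of all 5 members are no result about the family. With so many values at 0, such fitted folds depend on how 0 counts are handled and are no bounds.

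Whether stretch acted differently in axon and soma was tested as an interaction over all 4 groups, where 21.8% of 16113 genes passed in edgeR and no member did. That share is not stable, since limma voom with quality weights called 0 genes (424 at an unadjusted p under 0.05). The interaction was -3.12 for Nefl (SE 2.33, adjusted p = 0.634), 2.58 for Nefm (SE 3.14) and -1.50 for Ina (SE 2.18), the last 2 with adjusted p = 1.00, and it could not be estimated for Nefh and Prph. The fall of Nefm and Ina in soma was thus not shown to differ from what happened in axons.

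Members also varied among themselves within groups. After the mean of each group was taken off log2(TMM CPM + 1), Nefh and Prph moved together over the 12 soma libraries (Pearson r = 0.87), while Nefl ran opposite to Prph (r = -0.59) and Ina (r = -0.58), and Nefl and Nefm, the genomic neighbours, had r = 0.25. These are descriptions over 12 libraries that share depth, composition and the Eif2s3y split. By the same measure, the genes most like Nefl among 9282 candidates were Ift81 (r = 0.87), Edc3 (0.85) and Phyhip (0.84). The genes most like Nefm were Pam16 (0.90), Mrpl41 (0.89) and Zcrb1 (0.89), and those most like Ina were Ephb1 (0.94), Eif3b (0.91) and March5 (0.91). Nefh and Prph were under the level of 10 CPM set for this.

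Genes that build, modify, carry and remove these filaments were counted beside the members. The counts in soma are to be read beside the shares over all genes tested, of which 13.9% were lower and 11.2% higher in treated soma, and with lists this short they are descriptions. Of the 8 other intermediate filament genes tested in soma, 4 fell with stretch and none rose (3 to 5 called without single libraries), with a median log2 fold change of -0.32 against -0.03 over all genes. The nuclear lamins Lmnb1 (-1.08, SE 0.29, adjusted p = 0.0166) and Lmna (-0.47, SE 0.09, adjusted p = 0.00442) were among them, with Nes (-0.60, SE 0.20, adjusted p = 0.0430), a filament of neural progenitors, and Vim (-0.46, SE 0.12, adjusted p = 0.0155), a filament of glia and progenitors that lies outside the naming rule and was chosen after its value was seen. Gfap was at -0.14 (SE 0.30, adjusted p = 0.763). Nes lost its call without any 1 of 9 of the 12 libraries (control 1, 5 and 6 and each treated one), with adjusted p up to 0.121, and both Nes (adjusted p = 0.116) and Lmnb1 (adjusted p = 0.0563) lost theirs without the filter on low counts.

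Of the 18 kinases, phosphatases and related genes that act on neurofilament proteins, 4 rose and 4 fell in treated soma, beside 25.1% of all genes called in either direction. Mapk9 (0.87, SE 0.24), Ppp2cb (0.71, SE 0.16) and Prkacb (0.57, SE 0.12) rose the most. Ppp2ca, the other catalytic subunit gene of protein phosphatase 2A, fell by 0.82 (SE 0.23) and the neuronal kinase Cdk5 by 0.30 (SE 0.10, adjusted p = 0.0469). Without the filter on low counts, Mapk9 (adjusted p = 0.0684) and Ppp2ca (adjusted p = 0.0847) lost their calls. Cdk5 kept its call in a single one of the 12 fits without 1 library, the one without control soma replicate 4. Of the 9 transport and cross-linking genes, Kif5a, a motor that carries neurofilaments, rose by 0.35 (SE 0.11, adjusted p = 0.0301) and none fell. It lost its call without any 1 of 7 libraries (control 1, 2, 3 and 6, treated 1, 5 and 6), with adjusted p up to 0.0727.

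Of the 8 turnover and chaperone genes, 3 fell, where 13.9% of all genes did: the chaperone-linked ligase Stub1 by 0.40 (SE 0.08), the calcium-dependent protease Capn2 by 0.43 (SE 0.13) and, outside the naming rule because of its low level and named after its value was seen, the small heat shock protein Hspb1 by 1.45 (SE 0.26). Capn2 lost its call without any 1 of 6 libraries (control 2, 5 and 6, treated 1, 4 and 5), with adjusted p up to 0.0768. Of the 7 proteins known to bind neurofilament mRNAs, Tardbp (TDP-43) rose by 0.41 (SE 0.08), Elavl4 by 0.41 (SE 0.12) and Hnrnpk by 0.20 (SE 0.07), and Pcbp1 fell by 0.52 (SE 0.11), in a fit that called 25.1% of all genes. Hnrnpk lost its call without any 1 of 9 libraries (control 1, 2, 3 and 6, treated 1, 2, 5, 6 and 8), with adjusted p up to 0.103.

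Fold changes in soma followed transcript length over all genes (Spearman rho = 0.46 across 15619 genes that do not count as independent). Once length and GC content were corrected for by offsets, none of the 7 mRNA-binding genes passed, with Tardbp at 0.13 (adjusted p = 0.156) but Hnrnpk still at 0.17 (adjusted p = 0.0733), and Stub1, Cdk5 and Kif5a did not pass either, while Nefm (-0.72, adjusted p = 0.00645) and Ina (-0.53, adjusted p = 0.0248) kept their calls. Between treated and control axons, edgeR called no gene of these 5 lists. Between axon and soma, 8 of the 50 list genes tested were lower in control axons, among them Lmnb1 and Lmnb2, beside 34.4% of all genes, so the lists did not stand out above the background. The call of Ppp2cb was lost without any 1 of 9 of the 11 libraries. In treated axons, 6 were lower, beside 28.4% of all genes, among them Gsk3b (-1.43, SE 0.43) and Kif5c (-1.13, SE 0.34, lost without treated soma replicate 6 at adjusted p = 0.0507), and Hspb1 was higher (5.47, SE 1.5).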

How the data were processed

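RNA-seq read counts were analysed for 23 libraries. The authors deposited whole-number counts per Ensembl gene ID, not normalized. The submitters' processing notes list fastp 0.20.1, STAR 2.7.08a, HTSeq 0.13.5 and the build mm10, without roles. The strand setting and any use of the molecular identifiers in the library kit are not given in the sources used here. Per the labels' protocols, cDNA was amplified from poly(A) RNA with a low-input kit, so counts are not independent molecules, and floors (3 counts) cover counting error only. The 5 rows of uncounted reads were left out. CPM used total gene counts. Symbols matched 55141 of 55487 IDs. Coordinates, exons and sequences are from GENCODE M21 (GRCm38).

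Tests were fitted across all genes with edgeR 4.0.16 (filterByExpr, TMM, robust quasi-likelihood F test) in R 4.3.3, on the groups compared only, except for the interaction, and called at a Benjamini-Hochberg adjusted p of 0.05. Ratios to Nefl used log2 of counts plus 0.5 and exact permutation tests (SciPy 1.17.1). Alternatives used limma 3.58.1 (voom, sample quality weights), DESeq2 1.42.0, other scalings, no filter, all 4 groups together, the replicate number as a block, each library left out, the Eif2s3y sets, and length and GC offsets (mgcv 1.9.3). The procedure was tested on simulated data. All members are named in each comparison. From related lists, the 3 highest and 3 lowest called genes by fold change are named where they average 10 CPM or more, and likewise the 3 genes most correlated with a member. The members and lists were chosen with earlier results of these data known. Own-exon lengths and the covariate fit without control soma replicate 4 were chosen after seeing the data. Some genes that this rule names, and some member sequences, are not reported here.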

Additional observations from a re-analysis of the deposited data

Results flagged for a closer look

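Of 24 groups of values checked, 3 held a library that stood apart from all others of its group. Chance alone marks about 1 in 20 where values are normally spread. All 3 are axonal groups, whose values split between 0 and high levels, so that rate does not hold for them. Nefl was at 0 CPM in control axon replicate 2, while the nearest of the other control axons held 120 CPM. Nefm was at 111 CPM in control axon replicate 5, the deepest library, while the next highest control axon held 0.0441 CPM, a single count. Nefm was also at 506 CPM in treated axon replicate 1, where the next highest treated axon held 189 CPM and where no other member was counted above the floor.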

How the results depend on the processing

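Depth was not the limit in soma, where each member had at least 86 counts per library, but in axons whole transcripts were missing. In soma, the calls of Nefm and Ina were lost with all 4 groups in 1 fit and within the Eif2s3y low set (0 members and 0 genes called in each), and Ina was lost with the replicate block plus length and GC offsets (1 member, 2046 genes). Offsets alone called 2565 genes, and the Eif2s3y covariate without control soma replicate 4 called 7000. Nefl turned to -0.00029 with offsets. Prph turned to 0.037 with voom, 0.023 with all groups, 0.088 with the block, 0.20 within the low set, 0.20 with offsets and 0.38 with block and offsets. Without single libraries, the soma fit called 2666 to 6072 genes (6072 without control replicate 4), Nefl ran from -0.011 to 0.089 and Prph from -0.21 to 0.093.

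Replicate numbers were not taken as pairing: soma deviations of same-numbered libraries correlated at 0.27, 0.26, 0.16, 0.07 and 0.28, and libraries with other numbers in the same Eif2s3y set at a mean of 0.23. With the block, Nefm (-0.70, adjusted p = 0.0166) and Ina (-0.53, adjusted p = 0.0327) passed in soma among 3227 genes. Mapk9 (adjusted p = 0.0576), Ppp2ca (0.0632), Hnrnpk (0.124) and Cdk5 (0.145) did not pass. Between axon and soma in treated cultures, the block ended the calls of Gsk3b (0.205) and Hspb1 (0.154) and called Nefl lower in axons (-11.88, adjusted p = 0.0326). Over 5 same-numbered pairs the ratio to Nefl was -0.76 for Nefm (exact sign-flip permutation, adjusted p = 0.25) and 0.026 for Prph, where p cannot go below 0.0625.

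The Ina ratio passed without both libraries numbered 4 (-0.72). Without single libraries, log2 ratios to Nefl ran from -0.85 to -0.72 for Nefm, -0.70 to -0.44 for Ina, -0.75 to -0.34 for Nefh and -0.26 to 0.12 for Prph. Per kilobase of unshared exon over all transcripts of the gene, control soma levels were 62.3 for Nefl and 25.5 for Nefm.

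In axons, treated against control, DESeq2 called 859 genes, voom 10 and the fit of all groups 3870. Between axon and soma in control cultures, DESeq2 called 10206 genes, voom 9798 and no filter 10714, with 4542 to 8151 without single libraries (8151 without control axon replicate 5). In treated cultures it was 10064, 10084 and 10931, 7687 with the block, and 4174 to 6499 without single libraries (6499 without treated axon replicate 8). Voom called all 5 members there. Ina in control cultures turned to -2.93 with voom and -1.87 with the block, and ran from -0.69 to 0.83 without single libraries. Nefm in treated cultures turned to 0.67 with total counts, 0.27 with DESeq2 size factors, 0.25 with DESeq2, 0.13 without filter and 0.028 with all groups, and ran from -1.40 to 0.48 without single libraries. The interaction called 0 genes with voom and 6 with the block. DESeq2 gave Nefm no adjusted p in control cultures, and Nefl was not fitted in axons with the block. The cause was not tested for any of these changes.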
